A study of Mus musculus with 14 samples.

Results

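Differentiation of control 3T3-L1 cells was followed on 7 of the 14 expression arrays of the study: 3 arrays of cells at day 0, labelled preadipocyte, and 4 arrays of cells at day 7, labelled adipocyte. The 3T3-L1 line is a clonal mouse fibroblast line, derived from embryos and committed to the fat cell fate, so every array comes from 1 line grown in culture although the labels give adipose tissue as the tissue. All cells of the study carried a lentivirus. Per the labels' protocols its sequence was either scrambled, taken here as that of the cells labelled Control, or a siRNA sequence against TP53INP2, that of the other 7 arrays. Day 0 cells had been confluent for 2 days, and day 7 cells had then been kept in differentiation medium, whose composition was not stated. The question was which genes rise and fall when control preadipocytes become fat cells. Whether the replicates were separate cultures is not stated. The p-values rest on the spread pooled over all 14 arrays of the study, those with the TP53INP2 sequence included, and that spread may be technical.

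In textbook accounts of this line, hormones first switch on the transcription factors C/EBP beta and C/EBP delta, which in turn raise PPAR gamma and C/EBP alpha, and this pair keeps the genes of the mature fat cell on. Those genes serve to take up fatty acids, to build and to break down triglyceride on lipid droplets, to take up glucose under insulin and to secrete adipokines. Fibroblast features such as matrix remodelling are known to recede along the way.

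The labels were first set against 3 marker genes of fat cells. Adipoq, which encodes the adipokine adiponectin, stood at 5.73, 4.48 and 3.15 (log2 of the normalised probe signal) on day 0 arrays 1 to 3 and at 11.06, 11.08, 9.92 and 9.23 on day 7 arrays 1 to 4. It rose by 5.87 ± 1.05 on the log2 scale (SE; adjusted p = 0.00161; limma, Benjamini-Hochberg adjustment over all genes, as for every adjusted p of a gene below). Retn, which encodes resistin, stood at 6.08, 5.49 and 5.08 at day 0 and at 11.96, 12.04, 9.92 and 10.50 at day 7 (rise of 5.56 ± 0.65, adjusted p = 8.29e-05). Car3, an abundant carbonic anhydrase of fat cells, stood at 3.79, 3.92 and 4.26 and then at 10.28, 10.28, 8.91 and 8.52 (rise of 5.51 ± 0.57, adjusted p = 3.47e-05), while its 3 other probe sets changed by 0.37 to 1.16 without passing. In all 3 genes every day 7 array lay above every day 0 array. Whole cultures were measured, so a larger share of differentiated cells and more RNA per cell cannot be told apart.

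Some arrays stood apart from the rest. Day 7 arrays 1 and 2 were nearly alike: the difference between them had an SD of 0.10 over the 9096 brighter genes, against 0.33 to 0.45 for each of them with arrays 3 or 4, 0.37 between arrays 3 and 4, and 0.20 to 0.29 among the day 0 arrays. Each result was therefore also computed with replicates 1 and 2 of each group averaged into 1 sample. That value is given beside each result whose call it ends or whose count it moves by over 1.5 times. The averaging also merged arrays 1 and 2 of day 0 and those with the TP53INP2 sequence. It left 10 arrays and 6 residual degrees of freedom, against 14 and 10 in the reported fit. How much of a lost call came from having fewer arrays was not tested. Day 7 array 3 had the highest levels of Lcn2, Saa3, Hp and Cxcl1, given below, though not of the acute phase gene Orm1. The 3′ minus 5′ difference of the array's control probe sets, a measure of RNA length, was 3.54 ± 0.22 (SD, n = 3) at day 0 and 3.25 ± 0.31 (n = 4) at day 7 for beta-actin (exact two-sided permutation p = 0.229). For Gapdh it was 2.18 ± 0.22 and 1.63 ± 0.26, and for the transferrin receptor 3.08 ± 0.10 and 5.28 ± 0.32 (both exact permutation p = 0.0571, the smallest this design allows, 0.0857 after adjustment over the 3). When the beta-actin difference entered the fit as a covariate, 4712 genes were called, 3730 of them among the calls given below. Named genes whose call it changed are given beside their results, and list counts that it moved by over 1.5 times are given below. Smaller shifts of list counts, such as that to 22 lower interferon genes, are not given. Neither of the other 2 differences was used as a covariate.

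Between day 0 and day 7, 4162 of 18193 genes changed at an adjusted p under 0.05 (22.9% of the genes tested), of which 1842 rose (10.1%) and 2320 fell (12.8%). Of these, 637 rose and 612 fell at least 2-fold, 209 rose and 119 fell at least 4-fold, and 23 rose and 4 fell at least 16-fold. The median change over all genes was -0.01. The genes that rose at least 2-fold had a median level of 6.96 at day 0 and 8.87 at day 7. Their median change over the day 0 mean was 1.84, 1.85, 1.54 and 1.32 on day 7 arrays 1 to 4, and for genes that fell at least 2-fold it was -1.61, -1.59, -1.28 and -1.35, so arrays 3 and 4 moved less far than arrays 1 and 2 in both directions. The days did not overlap in 5967 genes (32.8%), among them 4009 of the called ones. With replicates 1 and 2 averaged, 1584 genes passed (743 higher, 841 lower), 1580 of them among the genes above. Without day 7 replicates 1 and 2, 2196 passed. With only day 7 array 1 left out 3192 passed, and with only day 7 array 2 left out 3148. With each array shifted to 1 median, 53.5% of the called genes were higher (2134 of 3986), against 44.3% here. Each list count below is to be read against the 10.1% that rose and the 12.8% that fell over all genes.

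**Figure D1:**
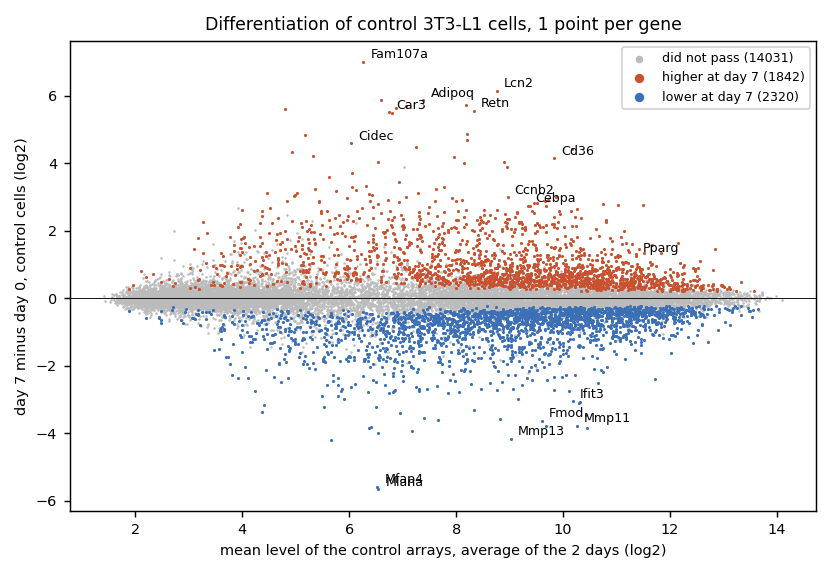
Change of each of the 18193 genes in control cells (day 7 minus day 0, log2) against its mean level over both days (log2). Red points are the 1842 genes that rose, blue points the 2320 that fell and grey points the rest; Fam107a and Lcn2 lie at the top, Mlana and Mfap4 at the bottom.

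The largest rise was that of Fam107a, a stress and glucocorticoid responsive gene. It stood at 2.91, 2.37 and 3.00 at day 0 and at 10.11, 10.22, 8.21 and 10.52 at day 7, a rise of 7.00 ± 0.58 (adjusted p = 1.03e-05), with array 3 the lowest of the day 7 arrays. Lcn2, the secreted iron siderophore binder lipocalin 2, rose by 6.16 ± 0.55, from 5.34, 5.96 and 5.73 to 11.26, 11.25, 13.64 and 11.20 (adjusted p = 1.62e-05). Here array 3 lay above the other three, which were close together. Next came 2610528A11Rik (5.88), Adipoq, the B cell chemokine Cxcl13 (5.74), Wfdc21 (5.70), the acute phase protein Orm1 (5.65) and Lgals12 (5.60), a galectin of lipid droplets. Retn and Car3 followed, then Retnla (5.48), a relative of resistin, the carbonyl reductase Cbr2 (4.88), Map7d2 (4.84), G0s2 (4.70) and Cidec (4.60). These 15 were picked as called genes without overlap between the days. Retnla and Map7d2 were higher on day 7 arrays 1 and 2 (10.74 and 10.72, and 8.80 and 8.87) than on arrays 3 and 4 (8.24 and 8.48, and 6.50 and 6.22). The second probe set of Lgals12 changed by 1.34 and did not pass.

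The deepest falls were those of Mlana, a melanosome protein of pigment cells, and Mfap4, a protein of elastic microfibrils. Mlana fell by 5.65 ± 0.27, from 9.82, 8.83 and 9.47 to 3.78, 3.67, 3.40 and 4.03 (adjusted p = 1.94e-07). Mfap4 fell by 5.59 ± 0.22, from 9.12, 9.23 and 9.61 to 3.93, 3.65, 3.64 and 3.72 (adjusted p = 4.36e-08). Both ended near the bottom of the scale on every day 7 array, where the method understates a change. The next deepest falls included those of the collagenase Mmp13 (-4.16), the fibulin Fbln7 (-3.85), the hyaluronan-degrading Cemip (-3.82), the protease Mmp11 (-3.77), the bone and dentin matrix protein Dmp1 (-3.77), the collagen-binding proteoglycan Fmod (-3.63), Angptl7 (-3.60) and Mamdc2 (-3.45). The others were those of the vesicle transport GTPase Rab27a (-3.99), the prostaglandin D2 synthase Ptgds (-3.92), the chemokine Ccl8 (-3.84), the steroid dehydrogenase Akr1c18 (-3.57) and the zinc finger gene Zfp469 (-3.54). The other 3 probe sets of Rab27a changed by -0.53 to -0.25 without passing. Ccl8 stood at 12.44, 12.57 and 12.09 at day 0 and at 7.98, 7.96, 10.55 and 7.60 at day 7, and its call was lost with replicates 1 and 2 averaged (adjusted p = 0.0992).

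**Figure D2:**
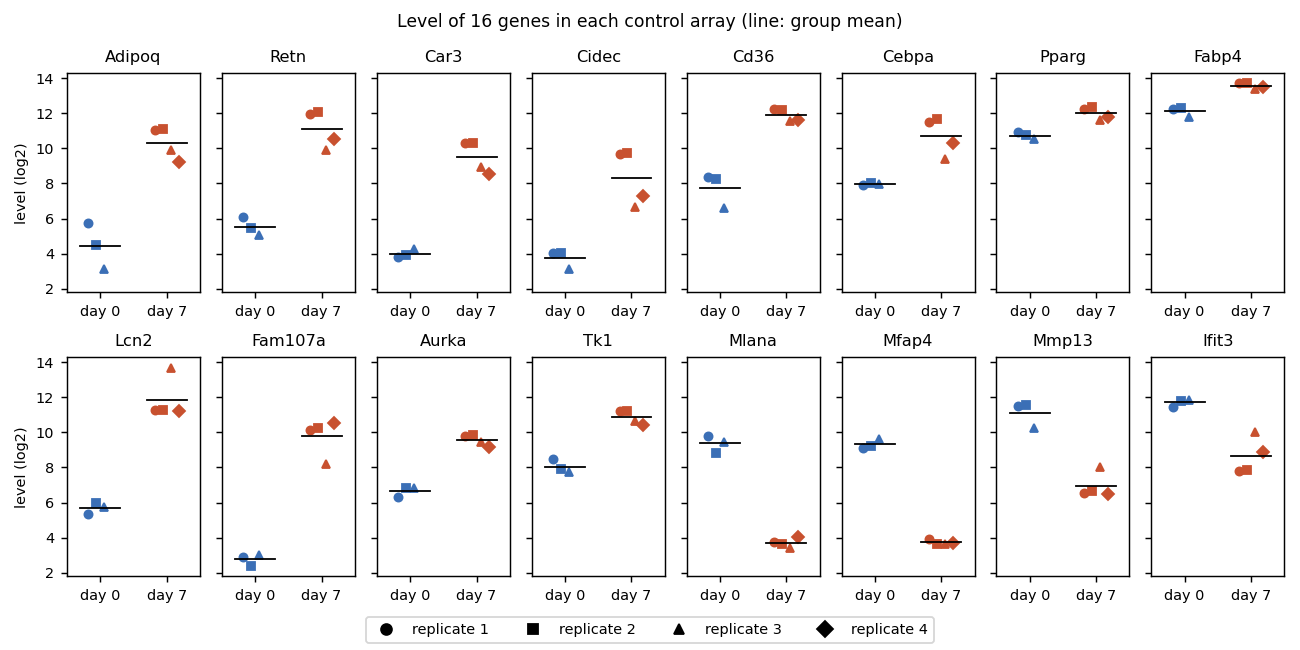
Level (log2) of 16 genes on each control array, with blue symbols for day 0, red symbols for day 7, 1 symbol shape per replicate number and a line at the group mean. In each panel the days do not overlap; Cidec and Cebpa are lower on day 7 arrays 3 and 4 than on arrays 1 and 2, and Lcn2, Mmp13 and Ifit3 are highest on array 3 among the day 7 arrays.

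Of 24 measured adipogenic transcription factors and cofactors, 10 rose and 2 fell, with a median change of 0.21. Cebpa, which encodes C/EBP alpha, stood at 7.91, 8.04 and 7.98 at day 0 and at 11.50, 11.66, 9.42 and 10.29 at day 7 (rise of 2.74 ± 0.46, adjusted p = 0.00102). Pparg was already at 10.92, 10.74 and 10.52 in preadipocytes and reached 12.22, 12.36, 11.60 and 11.76 (rise of 1.26 ± 0.20, adjusted p = 0.000631). Both lay higher on every day 7 array, with arrays 3 and 4 below arrays 1 and 2. Srebf1, the lipogenic sterol element factor, rose by 1.18 ± 0.19 (adjusted p = 0.000747), and Stat5a, a signal transducer of hormone receptors named after its values were seen, by 0.72 ± 0.10 (adjusted p = 0.000194). The early factor Cebpd rose by 0.96 ± 0.20 (adjusted p = 0.00445), while Cebpb changed by 0.05 ± 0.12 (adjusted p = 0.814) from levels of 10.38 to 10.85 at day 0. Klf15, a factor of the late programme, rose by 1.63 and the mitochondrial coactivator Ppargc1b by 1.68, whereas its relative Ppargc1a fell by 1.56 ± 0.24, from 10.63, 10.57 and 10.49 to 9.25, 9.39, 8.29 and 9.06 (adjusted p = 0.000524). Esrra, a partner of these coactivators, changed by 0.38 and did not pass, except with the beta-actin covariate (0.65, adjusted p = 0.0159). After averaging of replicates 1 and 2, 4 members rose in place of 10, and Cebpd, Klf15 and Ppargc1b were no longer called (adjusted p = 0.0695, 0.157 and 0.153). Without day 0 array 1, 5 members rose, and without day 0 array 3, 6. Klf15 was lost without day 0 array 1 (adjusted p = 0.0684), and Ppargc1b without array 1 or array 3 of that day (0.0569 and 0.0506).

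Of 22 measured genes of preadipocytes or of brakes on adipogenesis, 9 fell and 0 rose (median -0.42). The stress factor Ddit3, which can sequester C/EBP proteins, fell by 1.21 ± 0.23 (adjusted p = 0.00266). The GATA factor Gata3 fell by 1.20 ± 0.20 (adjusted p = 0.000981) and the platelet-derived growth factor receptor Pdgfrb fell by 1.08 ± 0.14 (adjusted p = 0.000194). Dlk1, the preadipocyte factor Pref-1, fell by 0.93 ± 0.25 (adjusted p = 0.0177) but remained at 12.21, 12.17, 12.78 and 12.58 at day 7, close to the top of the scale. Its call was lost with replicates 1 and 2 averaged (adjusted p = 0.151) and without day 0 array 3 (0.0688), day 7 array 1 (0.0512) or day 7 array 2 (0.0529). The count of 9 became 3 with that averaging and 5 without day 0 array 3.

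Among 17 measured genes of the lipid droplet coat and of lipolysis, 8 rose and 1 fell (median 0.81). G0s2, an inhibitor of adipose triglyceride lipase, rose by 4.70 ± 0.66, from 6.42, 5.91 and 5.23 to 11.70, 11.81, 8.85 and 9.84 (adjusted p = 0.000309). Cidec, which enlarges droplets, stood at 4.02, 4.03 and 3.15 and then at 9.69, 9.72, 6.67 and 7.26 (rise of 4.60 ± 0.74, adjusted p = 0.000787). In both genes arrays 3 and 4 were well below arrays 1 and 2 yet above all day 0 arrays. The lipases rose as well: Lipe, the hormone-sensitive lipase, by 3.23 ± 0.53 (adjusted p = 0.000868) and Pnpla2, the adipose triglyceride lipase, by 2.13 ± 0.31 (adjusted p = 0.000354). The second probe set of Lipe changed by -0.09 and did not pass. Abhd5, the coactivator of Pnpla2, rose by 0.94, the droplet-forming Fitm2 by 1.69 and the glycerol channel Aqp7 by 2.26 (lost with replicates 1 and 2 averaged, adjusted p = 0.108). Plin2, the general droplet coat protein, was at 12.57 to 12.66 at day 0 and 12.82 to 12.92 at day 7, a call of 0.23 that was lost with the replicate number as a block (adjusted p = 0.0741), with the averaging (0.204), with the beta-actin covariate (0.0537) and without any 1 of the 7 arrays (0.051 to 0.138). Plin4 changed by 0.81 and did not pass (adjusted p = 0.0588), but passed with the replicate block (0.0251), with the beta-actin covariate (0.00293) and without day 7 array 3 (0.0109).

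Of 17 measured genes of triglyceride assembly, 6 rose and 1 fell (median 0.45). Dgat2, which adds the third fatty acid, stood at 6.80, 6.08 and 6.42 and then at 9.87, 10.01, 9.89 and 7.86 (rise of 2.98 ± 0.44, adjusted p = 0.000445). Array 4 was the lowest of the day 7 arrays but still above day 0. Pcx, the pyruvate carboxylase that feeds lipogenesis, rose by 2.20 ± 0.31 (adjusted p = 0.000304), the second diacylglycerol acyltransferase Dgat1 by 1.24 ± 0.22 (adjusted p = 0.0013) and Agpat5 by 0.64 ± 0.13 (adjusted p = 0.00304). Gpd1, the glycerol phosphate dehydrogenase often used as a marker of fat cells, was at 5.38, 4.79 and 4.87 at day 0 and at 8.90, 9.02, 4.93 and 6.10 at day 7; array 3 lay within the day 0 range and the gene did not pass (2.22, adjusted p = 0.154) unless array 3 was left out (2.99, adjusted p = 0.0409) or the beta-actin covariate was used (3.53, adjusted p = 0.00386). Pck1, the glyceroneogenic enzyme, stayed between 2.67 and 3.74 on all 7 arrays.

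Of 14 measured genes of fatty acid uptake and activation, 4 rose and 3 fell (median 0.20). Cd36, the fatty acid translocase, stood at 8.38, 8.26 and 6.63 at day 0 and at 12.24, 12.19, 11.57 and 11.60 at day 7 (rise of 4.15 ± 0.37, adjusted p = 1.51e-05). The fatty acid carriers Fabp4 and Fabp5 rose by 1.47 ± 0.14 (adjusted p = 3.01e-05) and 0.98 ± 0.11 (adjusted p = 7.53e-05), Fabp4 from a level of 11.76 to 12.32 at day 0 near the top of the scale. The other, dimmer probe sets of Fabp4 rose by 1.83 to 3.65 and that of Fabp5 by 2.39, all called. Gpihbp1, the endothelial anchor of lipoprotein lipase, fell by 2.37 ± 0.43 (adjusted p = 0.00161). The lipase itself, Lpl, was at 13.58 to 13.68 at day 0 and 13.49 to 13.62 at day 7 (adjusted p = 0.526). These levels lie near the top of the scale, where a rise may be hidden. When replicates 1 and 2 were averaged, 3 members rose and 1 fell.

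The genes of fatty acid synthesis did not move as a group: of 19 measured, 2 rose and 3 fell (median -0.07). Thrsp, the lipogenic nuclear protein Spot 14, rose by 2.60 ± 0.72, from 6.17, 5.76 and 4.48 to 9.22, 9.10, 6.35 and 7.60 (adjusted p = 0.0206). That call was lost with replicates 1 and 2 averaged (adjusted p = 0.147) and without day 0 array 3 (0.0941), day 7 array 1 (0.0615) or day 7 array 2 (0.0616), and its 2 other probe sets changed by 0.05 and 0.72 without passing. Elovl6, a fatty acid elongase, fell by 0.93 (adjusted p = 0.0209), a call that was lost with the averaging (0.106), with the beta-actin covariate (0.0507) and without any 1 of the day 0 arrays (0.0517 to 0.0642). The core enzymes did not pass and are named after their values were seen. The stearoyl desaturase Scd1 was at 12.63 to 12.69 and then at 12.33 to 12.68, the citrate lyase Acly at 12.53 to 12.71 and then at 12.41 to 12.53, and the fatty acid synthase Fasn at 10.17 to 10.50 and then at 9.69 to 10.75. Scd1 and Acly thus stood near the top of the scale on both days, where a rise may be hidden. With replicates 1 and 2 averaged 0 members fell and 0 rose. The count of 3 that fell became 1 without any 1 of the day 0 arrays and with the beta-actin covariate, and the count of 2 that rose became 1 without day 0 array 1 and 0 without day 0 array 3 or day 7 array 1 or 2.

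Cholesterol synthesis moved down. Of 19 measured genes 11 fell and 0 rose (median -0.57). Msmo1, a demethylating sterol oxidase, stood at 11.33, 11.50 and 11.71 at day 0 and at 10.26, 10.32, 8.87 and 9.52 at day 7 (fall of -1.77 ± 0.35, adjusted p = 0.00303). Tm7sf2 fell by 1.48 ± 0.22 (adjusted p = 0.00044), Mvd by 1.45 ± 0.29 (adjusted p = 0.00338) and the squalene synthase Fdft1 fell by 1.25 ± 0.22 (adjusted p = 0.00138). Sc5d and Srebf2, the transcription factor of the pathway, fell by 1.10 and 1.08. The mean over the list, set against the day 0 mean, was -0.49, -0.45, -1.33 and -0.93 on day 7 arrays 1 to 4, so arrays 3 and 4 fell furthest here. The count of 11 became 6 with replicates 1 and 2 averaged, 7 without day 0 array 2 and 6 without day 0 array 3.

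Of 20 measured genes of secreted proteins of fat cells, 11 rose and 1 fell (median 0.80). Beside Adipoq, Retn, Lcn2 and Orm1, the lipase inhibitor Angptl4 rose by 2.13 ± 0.28, from 9.50, 9.70 and 8.33 to 11.11, 11.12, 11.68 and 11.32 (adjusted p = 0.00018). Angiotensinogen, Agt, rose by 2.12 ± 0.41 (adjusted p = 0.00242) and apelin, Apln, by 1.61 ± 0.25 (adjusted p = 0.000629). The serum amyloid gene Saa3 stood at 5.52, 6.21 and 5.84 at day 0 and at 8.58, 8.73, 13.73 and 9.18 at day 7, and haptoglobin, Hp, at 6.58, 6.44 and 5.37 and then at 8.32, 8.53, 12.54 and 8.34. Both were called (4.20, adjusted p = 0.0335, and 3.30, adjusted p = 0.0253) with array 3 far above the other day 7 arrays. Saa3 was lost without day 7 array 3 (adjusted p = 0.0551) or without any 1 of the day 0 arrays (0.0728 to 0.0988), and Hp without any 1 of the day 0 arrays (0.0537 to 0.094). Both were also lost with replicates 1 and 2 averaged (0.152 and 0.114) and with the beta-actin covariate (0.0617 and 0.0719). Leptin, Lep, lay between 2.20 and 2.81 on all 7 arrays. After averaging of replicates 1 and 2, 7 members rose.

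Genes of mitochondrial fatty acid oxidation rose in 13 of 19 cases and fell in 0 (median 0.55). Cpt2, which hands imported fatty acids to coenzyme A, stood at 9.33, 9.70 and 9.34 and then at 10.72, 10.80, 10.27 and 10.62 (rise of 1.14 ± 0.20, adjusted p = 0.00125). The acyl-CoA dehydrogenases Acadm and Acads rose by 1.03 ± 0.15 (adjusted p = 0.000465) and 1.01 ± 0.18 (adjusted p = 0.00167). When replicates 1 and 2 were averaged these 3 genes were the ones called of the 13, and without day 0 array 3 the count was 8. Of 16 peroxisomal genes 5 rose and 0 fell (median 0.29), led by Pex11a, a factor of peroxisome division, at 1.59 ± 0.27 (adjusted p = 0.00102) and followed by Pex13 at 0.73 ± 0.12 (adjusted p = 0.000653). With that averaging 3 rose.

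In the other mitochondrial lists between 18.5% and 50% of the members rose. In the tricarboxylic acid cycle list 11 of 22 genes rose and 1 fell (median 0.37), in the list of branched-chain amino acid breakdown 8 of 19 rose and 0 fell (0.31), and in that of mitochondrial biogenesis and ribosomes 11 of 22 rose and 0 fell (0.39). Of 27 genes of oxidative phosphorylation 5 rose and 0 fell (0.19). Aldh6a1, an enzyme of valine breakdown, rose by 0.93 ± 0.16 (adjusted p = 0.00109), and Tfb1m, a mitochondrial rRNA methyltransferase, by 0.82 ± 0.15 (adjusted p = 0.00225), a call lost with its most variable probe set (0.0908). Bcat2, the mitochondrial branched-chain aminotransferase, rose by 1.19, Bckdhb, a subunit of the branched-chain keto acid dehydrogenase, by 0.95, and Tomm40, the import pore, by 1.24. The calls of these last 3 genes were lost with replicates 1 and 2 averaged (adjusted p = 0.0778, 0.133 and 0.068). Uqcrfs1, the iron-sulfur subunit of complex III, rose by 0.70 (adjusted p = 0.0325), a call lost with the replicate block (0.0569), with the averaging (0.251), without any 1 of the day 0 arrays (0.0703 to 0.106) and without day 7 array 1 (0.0904) or 2 (0.0917). Pdk2, a brake on pyruvate dehydrogenase, fell by 0.76 (adjusted p = 0.0178), but not with the averaging (0.103) or without day 0 array 1 (0.0652) or 2 (0.0637).

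These mitochondrial counts leaned on single arrays. With replicates 1 and 2 averaged, 1 gene rose in each of the tricarboxylic acid cycle, branched-chain and biogenesis lists and 0 in oxidative phosphorylation. The cycle count of 11 became 6, 7 and 4 without day 0 arrays 1, 2 and 3, and 5 without day 7 array 1 or 2. The branched-chain count became 5 without day 7 array 1 or 2, and the biogenesis count 7 without day 0 array 3 or day 7 array 2. For oxidative phosphorylation the count became 1, 0 and 1 without day 0 arrays 1, 2 and 3, 0 without day 7 array 1 or 2, and 9 without day 7 array 3. It became 2 with the control arrays alone, 8 with the most variable probe sets or without the dimmest 40% of genes and 10 with trend and robust moderation. With the beta-actin covariate 13 of the 27 oxidative phosphorylation genes, 17 of the 22 cycle genes and 8 of the 16 peroxisomal genes rose. The mean of the oxidative phosphorylation list over its day 0 mean was 0.36, 0.33, 0.05 and 0.12 on day 7 arrays 1 to 4, against -0.07 to 0.03 on the day 0 arrays.

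In glucose handling, Slc2a4, the insulin-regulated transporter GLUT4, stood at 4.20, 4.45 and 3.36 at day 0 and at 7.90, 8.19, 5.91 and 5.44 at day 7. Every day 7 array lay above day 0, with arrays 3 and 4 well below the others (rise of 2.86 ± 0.66, adjusted p = 0.00726), but the call was lost with replicates 1 and 2 averaged (0.0892), and its second probe set changed by 0.50 without passing. Trarg1, a regulator of GLUT4 traffic, rose by 1.94 ± 0.20 (adjusted p = 3.47e-05), Tbc1d4, the Akt substrate that holds GLUT4 inside, by 1.57 ± 0.28 (adjusted p = 0.00151), the caveolar coat Cav1 by 1.06 ± 0.09 (adjusted p = 1.31e-05) and the regulatory subunit Pik3r1 by 0.81 ± 0.12 (adjusted p = 0.000483). In all, 8 of 21 genes of insulin signalling rose and 4 fell (median 0.03). Grb10, an adaptor that dampens the insulin receptor, fell by 1.46 (adjusted p = 0.0122), but not with replicates 1 and 2 averaged (0.109) or without day 0 array 1 (0.0577) or 2 (0.0537). Its other probe sets changed by 0.06 to 0.17 without passing. After averaging of replicates 1 and 2 1 of the 4 fell, and without day 0 array 3 or day 7 array 1 or 2 the count was 2.

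Glycolysis rose in 7 of 17 genes and fell in 0 (median 0.33). Pfkl, the liver-type phosphofructokinase, rose by 1.20 ± 0.15 (adjusted p = 0.00015) and the lactate dehydrogenase Ldha by 0.85 ± 0.13 (adjusted p = 0.000444), and these 2 were the ones that also passed with replicates 1 and 2 averaged. Without day 0 array 3 the count was 4. In the list of carbonic anhydrases and membrane transport 8 of 21 genes rose and 1 fell (median 0.63). Beside Car3 and Aqp7, the mitochondrial Car5b rose by 2.21 ± 0.24, from 8.33, 7.85 and 8.18 to 10.59, 10.74, 9.80 and 10.19 (adjusted p = 5.06e-05). Car2 rose by 2.79 and the water channel Aqp1 by 2.05, with array 3 (11.16) above the other day 7 arrays (9.40 to 9.50). Car2, Aqp1 and Aqp7 were not called with the averaging (adjusted p = 0.0593, 0.0846 and 0.108), and the list's count was then 3.

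Signals by way of cyclic AMP moved both ways, with 3 of 16 genes higher and 5 lower (median -0.10). Adcy7, an adenylyl cyclase, fell by 2.43 ± 0.41, from 10.79, 10.74 and 10.39 to 8.22, 8.19, 8.64 and 7.78 (adjusted p = 0.00103). Ptger4, the prostaglandin E2 receptor EP4, fell by 2.34 ± 0.60 (adjusted p = 0.0133), with array 3 (9.87) nearest to day 0 (10.73 to 11.20), and was lost with replicates 1 and 2 averaged (0.17). With that averaging 0 members rose and 1 fell. The count of 3 higher became 1 without day 0 array 1 or 2 or day 7 array 1, 2 or 3, with the control arrays alone and with the beta-actin covariate. In the insulin-like growth factor system 3 of 12 genes fell and 0 rose (median -0.38): the protease Pappa by 1.20 ± 0.25 (adjusted p = 0.00465, 0.0766 with the averaging) and the receptors Igf2r, by 0.52 ± 0.11 (adjusted p = 0.00393), and Igf1r, by 0.46 ± 0.14 (adjusted p = 0.0295). Igf1r was lost with the replicate block (0.0697), with the averaging (0.132) and without day 0 array 2 or 3 or day 7 array 1 or 2 (0.059 to 0.133). Of the 12, 1 fell with the averaging and 5 with the beta-actin covariate. Igf2 stood at 9.33, 9.04 and 11.48 at day 0 and at 7.58, 7.65, 9.32 and 8.54 at day 7. It did not pass (-1.68, adjusted p = 0.0647), but passed with the replicate block (0.00145), with the beta-actin covariate (0.00281) and without day 0 array 2 (0.0459) or day 7 array 3 (0.0308).

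Among glucocorticoid responsive genes 9 of 19 rose and 1 fell (median 0.20). Fkbp5, a chaperone of the glucocorticoid receptor, rose by 0.99 ± 0.17 (adjusted p = 0.0011), Zbtb16 by 1.03 ± 0.20 (adjusted p = 0.00289) and Tsc22d3, which encodes GILZ, by 1.05 ± 0.20 (adjusted p = 0.00206). Of 26 nuclear receptors 4 rose, Pparg among them, and 6 fell (median -0.02). The mineralocorticoid receptor Nr3c2 fell by 0.82 ± 0.13, from 8.29, 7.95 and 8.31 to 7.30, 7.51, 7.30 and 7.34 (adjusted p = 0.000844). When replicates 1 and 2 were averaged 1 nuclear receptor rose and 1 fell. The count of 4 became 2, 2 and 1 without day 0 arrays 1, 2 and 3 and 1 without day 7 array 1 or 2, and the count of 6 became 2 without day 7 array 2.

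Of 17 measured genes of brown and beige fat, 1 rose and 2 fell (median 0.08). Ucp1, the uncoupling protein that marks brown fat, lay between 3.85 and 4.46 on all 7 arrays. Beside Ppargc1a, the thyroid hormone deiodinase Dio2 fell by 1.19 ± 0.27 (adjusted p = 0.0066), though not with replicates 1 and 2 averaged (0.0679). The 1 that rose was Ebf2, a factor of brown preadipocytes, at 5.35, 6.30 and 5.99 and then at 7.69, 7.56, 6.11 and 7.24 (1.28, adjusted p = 0.0389), with array 3 inside the day 0 range. Its call was lost with the averaging (0.242) and without day 0 array 1 or 3 or day 7 array 1, 2 or 4 (0.0722 to 0.161). The count of 1 became 0 with the averaging, without day 0 array 1 or 3 and without day 7 array 1 or 2, and 2 without day 7 array 3, with the replicate block or with the beta-actin covariate.

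Cell division genes rose as whole lists. All 31 measured genes of mitosis and the spindle rose (median 2.43), as did all 31 of S phase and DNA replication (median 1.43), and in each of them the days did not overlap. With replicates 1 and 2 averaged all 31 mitotic genes and 27 of the S phase genes rose, and without any 1 array the count was 31 in both. The mean of the mitotic list over its day 0 mean was 2.51, 2.54, 2.30 and 2.16 on day 7 arrays 1 to 4, and -0.04 to 0.06 on the day 0 arrays. The mean of the S phase list was 1.63, 1.62, 1.41 and 1.11, against -0.02 to 0.02.

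Promoters of 3 mitotic genes are shown, picked for the largest rises among members whose promoter holds both motifs described next. Each is a stretch of the RefSeq promoter on build GRCm38.p6, read 5′ to 3′ along the gene's strand, with capitals for the cell cycle homology region (TTTGAA or TTCGAA) and the CCAAT box (CCAAT), each searched on both strands.
Ccnb2 (chr9:70421533-70421733, minus strand): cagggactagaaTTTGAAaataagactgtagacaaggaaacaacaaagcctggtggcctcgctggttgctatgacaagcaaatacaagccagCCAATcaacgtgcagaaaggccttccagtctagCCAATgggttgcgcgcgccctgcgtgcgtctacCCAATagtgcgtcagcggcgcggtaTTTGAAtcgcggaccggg
Aurka (chr2:172370521-172370633, minus strand): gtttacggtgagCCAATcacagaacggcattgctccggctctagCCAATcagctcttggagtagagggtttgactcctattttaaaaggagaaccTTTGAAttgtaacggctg
Mki67 (chr7:135716460-135716579, minus strand): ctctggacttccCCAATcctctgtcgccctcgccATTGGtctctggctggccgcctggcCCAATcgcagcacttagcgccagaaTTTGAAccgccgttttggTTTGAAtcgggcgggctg
Of the 25 mitotic genes with a promoter in the table (250 bases before to 50 after the start), 20 held the homology region (80%), 19 the CCAAT box (76%) and 17 both (68%). Over the 14452 tested genes with a promoter these shares were 15%, 38.2% and 6.13%. Ccnb2, cyclin B2, stood at 7.51, 7.60 and 7.29 at day 0 and at 10.57, 10.62, 10.29 and 10.36 at day 7 (rise of 3.00 ± 0.26, adjusted p = 1.31e-05). Aurka, the aurora kinase A of the spindle poles, stood at 6.31, 6.82 and 6.82 and then at 9.80, 9.83, 9.45 and 9.17 (rise of 2.91 ± 0.28, adjusted p = 2.75e-05); its second probe set changed by 0.45 without passing. The proliferation marker Mki67 rose by 2.84 ± 0.26, from 8.03, 8.18 and 8.06 to 10.98, 11.01, 10.74 and 10.98 (adjusted p = 1.94e-05). In all 3 genes the day 7 arrays lay well apart from the day 0 arrays.

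For S phase genes the E2F site was searched as TTTGGCGC, TTTCGCGC or TTCCCGCC on both strands, whose copies on opposite strands can overlap. It is shown in capitals in 3 genes of the list whose promoters hold it.
Mcm5 (chr8:75109344-75109379, plus strand): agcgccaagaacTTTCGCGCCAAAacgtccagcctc
Uhrf1 (chr17:56303277-56303308, plus strand): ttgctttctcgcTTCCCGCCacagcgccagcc
Prim1 (chr10:128015188-128015219, plus strand): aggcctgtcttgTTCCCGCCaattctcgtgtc
The site was in 13 of 26 S phase promoters (50%) and in 4.52% of those of all tested genes, and the CCAAT box in 16 of the 26 (61.5%). The replicative helicase subunit Mcm5 rose by 2.13 ± 0.39 (adjusted p = 0.00187), Uhrf1, which keeps DNA methylation through replication, by 1.60 ± 0.29 (adjusted p = 0.0015) and the primase subunit Prim1, named after its value was seen, by 1.58 ± 0.13 (adjusted p = 1.25e-05). The largest changes of the list were those of Cdc6, the helicase loader, at 2.89 ± 0.34 (6.83, 6.49 and 6.31 at day 0, 9.94, 9.84, 9.25 and 8.72 at day 7) and of the thymidine kinase Tk1 at 2.82 ± 0.35 (8.48, 7.94 and 7.72, then 11.19, 11.21, 10.64 and 10.43).

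Regulators of cycle entry were listed separately. Of 19 CDK inhibitors, cyclins, kinases and retinoblastoma family genes 5 rose and 2 fell (median 0.08). Rbl1, the pocket protein p107, rose by 1.28 ± 0.18 (adjusted p = 0.000268), the inhibitor Cdkn2d by 0.94 ± 0.13 (adjusted p = 0.000327) and Ccng2 by 0.78 ± 0.16 (adjusted p = 0.00331). The 3 other probe sets of Rbl1 changed by -0.11 to 0.51 without passing. Cdkn2b, which encodes p15, fell by 1.16 (adjusted p = 0.0198), but was lost with replicates 1 and 2 averaged (0.203) and without day 0 array 1 or 2 or day 7 array 1 or 2 (0.0594 to 0.0697). Cdkn1a, which encodes p21 and is named after its value was seen, changed by 0.09 (adjusted p = 0.746). The count of 5 became 3 with replicates 1 and 2 averaged and without day 0 array 2 or day 7 array 1 or 2. Of 20 p53 target genes 1 rose and 3 fell (median -0.11). With the replicate block 5 fell, and with the averaging 0.

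Among genes of the extracellular matrix more members fell than rose. Of 20 proteases and inhibitors 13 fell and 1 rose (median -1.17), of 29 matrix glycoproteins and integrins 12 fell and 2 rose (-0.38), and of 27 collagens and collagen enzymes 12 fell and 1 rose (-0.33). Mmp13 stood at 11.50, 11.55 and 10.27 at day 0 and at 6.57, 6.68, 8.05 and 6.49 at day 7 (fall of -4.16 ± 0.58, adjusted p = 0.000295), and Mmp11 at 12.13, 12.25 and 12.04 and then at 7.70, 7.84, 9.04 and 8.89 (fall of -3.77 ± 0.39, adjusted p = 3.72e-05). The plasminogen activator Plau fell by 2.35 ± 0.31, the gelatinase Mmp9 by 2.29 ± 0.42, the collagenolytic cathepsin Ctsk fell by 1.86 ± 0.30 and the membrane-bound Mmp14 by 1.65 ± 0.17, each with an adjusted p of 0.0018 or lower. The second probe set of Plau, whose day 7 levels of 2.69 to 3.17 lie near the bottom of the scale, changed by -0.09 without passing.

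Among the glycoproteins, Fmod fell by 3.63 ± 0.25 (adjusted p = 3.5e-06). Tenascin C, Tnc, an adhesion-modulating protein, fell by 2.69 ± 0.33, from 10.27, 10.57 and 10.37 to 7.31, 7.58, 8.28 and 7.67 (adjusted p = 0.000129). The proteoglycan Ogn fell by 2.38 ± 0.42 (adjusted p = 0.0015) and the vitronectin receptor subunit Itgb5 by 1.70 ± 0.20 (adjusted p = 7.73e-05). The laminin receptor subunit Itga6 rose by 1.12 and the collagen lysyl hydroxylase Plod2 by 1.07, both lost with replicates 1 and 2 averaged (adjusted p = 0.104 and 0.064). The fibril-associated collagen Col16a1 fell by 1.21 ± 0.21 (adjusted p = 0.00138). With the averaging 7 proteases, 5 glycoproteins and 3 collagens fell. The glycoprotein count was 7 without day 0 array 2, and the collagen count 5 and 7 without day 0 arrays 1 and 2. Of 20 genes of the contractile apparatus or regulated by SRF or YAP 3 fell and 1 rose (median -0.16). The 3 became 1 without day 0 array 2 or 3 or day 7 array 1 or 2, 5 without day 7 array 3, 0 with the averaging and 7 with the beta-actin covariate. That covariate also gave 19 falls among the 29 glycoproteins and 3 rises among the 27 collagens.

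Of 32 genes of TGF beta and BMP signalling 10 fell and 4 rose (median -0.11), and ligands were among those that fell. Bmp4 fell by 2.35 ± 0.30, from 5.22, 4.98 and 5.10 to 2.57, 2.59, 3.48 and 2.37 (adjusted p = 0.000171), the activin subunit Inhbb by 2.12 ± 0.40 (adjusted p = 0.00215) and Tgfb3 by 1.19 ± 0.19 (adjusted p = 0.000887). The second probe set of Inhbb changed by 0.08 without passing. Id1, a BMP target that blocks basic helix-loop-helix factors, rose by 2.16 ± 0.23, from 6.54, 6.56 and 6.85 to 9.14, 9.21, 8.49 and 8.37 (adjusted p = 3.76e-05), and the decoy receptor Bambi by 0.88 ± 0.16 (adjusted p = 0.00214). After averaging of replicates 1 and 2 4 fell and 2 rose, and without day 0 array 1, 2 rose. In the Wnt pathway 9 of 25 genes fell and 0 rose (median -0.12). Dkk3, a secreted Dickkopf family member, fell by 2.79 ± 0.32 (adjusted p = 7.53e-05), the receptors Fzd2 and Fzd1 by 1.19 ± 0.16 (adjusted p = 0.000198) and 1.10 ± 0.15 (adjusted p = 0.000296), and the signal transducer Dvl2 by 0.57 ± 0.12 (adjusted p = 0.0041). The 9 became 5 with the averaging and 5 without day 0 array 1. The 0 that rose became 3 without day 7 array 3 or with the beta-actin covariate, 2 with the replicate block, with the most variable probe sets, without the dimmest 40% of genes or with arrays shifted to 1 median, and 1 after quantile normalization or with the mean over probe sets.

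Interferon response genes fell. Of 22 measured, 18 fell and 0 rose (median -1.90). The core letters of the interferon response element, GAAANNGAA, were searched on both strands, a motif added after the fall had been seen, and are shown in capitals in 3 of the promoters, where neighbouring copies can overlap.
Ifit3 (chr19:34583362-34583447, plus strand): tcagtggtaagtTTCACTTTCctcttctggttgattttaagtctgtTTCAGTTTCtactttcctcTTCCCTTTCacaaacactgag
Rsad2 (chr12:26456551-26456583, minus strand): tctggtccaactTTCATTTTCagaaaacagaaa
Bst2 (chr8:71537576-71537614, minus strand): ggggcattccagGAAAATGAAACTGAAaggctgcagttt
It was present in 11 of 18 promoters of the list (61.1%) and in 7.36% of those of all tested genes. Ifit3, an interferon-induced antiviral protein, stood at 11.47, 11.78 and 11.87 at day 0 and at 7.81, 7.86, 10.05 and 8.91 at day 7 (fall of -3.05 ± 0.62, adjusted p = 0.00354). Bst2, the virus-tethering tetherin, stood at 10.66, 10.74 and 11.33 and then at 7.69, 7.97, 9.39 and 8.94 (fall of -2.41 ± 0.42, adjusted p = 0.00129). Rsad2, viperin, stood at 10.75, 11.24 and 11.59 and then at 7.37, 7.47, 10.37 and 8.70. Array 3 was the least changed day 7 array in each of them.

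The fall of interferon genes differed in depth between arrays: the mean over the list, set against day 0, was -2.53, -2.49, -0.74 and -1.66 on day 7 arrays 1 to 4. When replicates 1 and 2 were averaged 4 of the 18 passed. Bst2 was among these, with Stat2 (-1.94 ± 0.34) and Irf9 (-1.45 ± 0.24), which carry the type I interferon signal to the nucleus. Ifit3 and the GTPase Mx2 (-2.74) did not (adjusted p = 0.0675 and 0.127). Rsad2 (-2.71, adjusted p = 0.0348) was lost with the averaging (0.217) and without any 1 of the arrays other than day 7 array 3 (0.0537 to 0.106).

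Of 28 chemokines and other inflammatory genes 2 rose and 3 fell (median -0.08). The list's mean over day 0 was -0.59, -0.56 and -0.44 on day 7 arrays 1, 2 and 4 but 0.80 on array 3. Il1rn, the interleukin 1 receptor antagonist, rose by 2.90 ± 0.57 (adjusted p = 0.00285) and the NF-kappa B inhibitor Nfkbia by 0.59 ± 0.11 (adjusted p = 0.00176). Cxcl16 fell by 1.73 ± 0.32 (adjusted p = 0.00175). The neutrophil chemokine Cxcl1 stood at 8.43, 8.69 and 8.78 and then at 9.13, 9.16, 12.12 and 9.42, and did not pass (1.33, adjusted p = 0.207). With replicates 1 and 2 averaged 1 member fell. With the beta-actin covariate 7 fell.

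Lysosomal genes fell in 16 of 21 cases and rose in 0 (median -0.65). Ctsa, the protective protein cathepsin A, stood at 11.89, 12.10 and 11.86 at day 0 and at 10.46, 10.39, 10.83 and 10.71 at day 7 (fall of -1.35 ± 0.15, adjusted p = 5.58e-05). The glycogen-degrading Gaa fell by 1.15 ± 0.12 (adjusted p = 3.12e-05), the cholesterol exporter Npc1 by 1.04 ± 0.16 (adjusted p = 0.000462), the hexosaminidase subunit Hexa by 0.94 ± 0.12 (adjusted p = 0.00016) and the protease Ctsd by 0.74 ± 0.10 (adjusted p = 0.000184). The proton pump subunit Atp6v0d2 fell by 1.80 ± 0.21 (5.35 to 6.01 at day 0, 3.64 to 4.19 at day 7). The list's mean over day 0 was alike on the 4 day 7 arrays, from -0.68 to -0.59. Tfeb, a master regulator of lysosomal genes, changed by 0.38 and did not pass (adjusted p = 0.431), except with the beta-actin covariate (0.74, adjusted p = 0.0281). After averaging of replicates 1 and 2 9 members fell.

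Of 28 autophagy genes 9 fell and 1 rose (median -0.19). The ATG8 family member Gabarapl1 fell by 0.67 and the cargo receptor Sqstm1 by 0.64, and the mitophagy receptor Bnip3 rose by 0.91 ± 0.14 (adjusted p = 0.00053). Trp53inp2, the gene targeted elsewhere in the study, stood at 12.45, 12.53 and 12.38 at day 0 and at 11.74, 11.77, 11.78 and 11.70 at day 7 (fall of -0.71 ± 0.14, adjusted p = 0.00304). When replicates 1 and 2 were averaged 0 members fell, Gabarapl1, Sqstm1 and Trp53inp2 included (adjusted p = 0.0828, 0.0697 and 0.0562). Of 21 genes of the unfolded protein response 7 fell and 0 rose (median -0.14), led by Ddit3; 1 fell with the averaging and 4 without day 7 array 1 or 2. Of 24 antioxidant and detoxification genes 10 rose and 1 fell (median 0.14). Beside Car3, the glutathione synthesis subunit Gclc rose by 0.67 (adjusted p = 0.00611, 0.084 with the averaging), and the glutathione transferase Gsta4 fell by 0.61 ± 0.10 (adjusted p = 0.000914). With the averaging 1 rose.

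**Figure D3:**
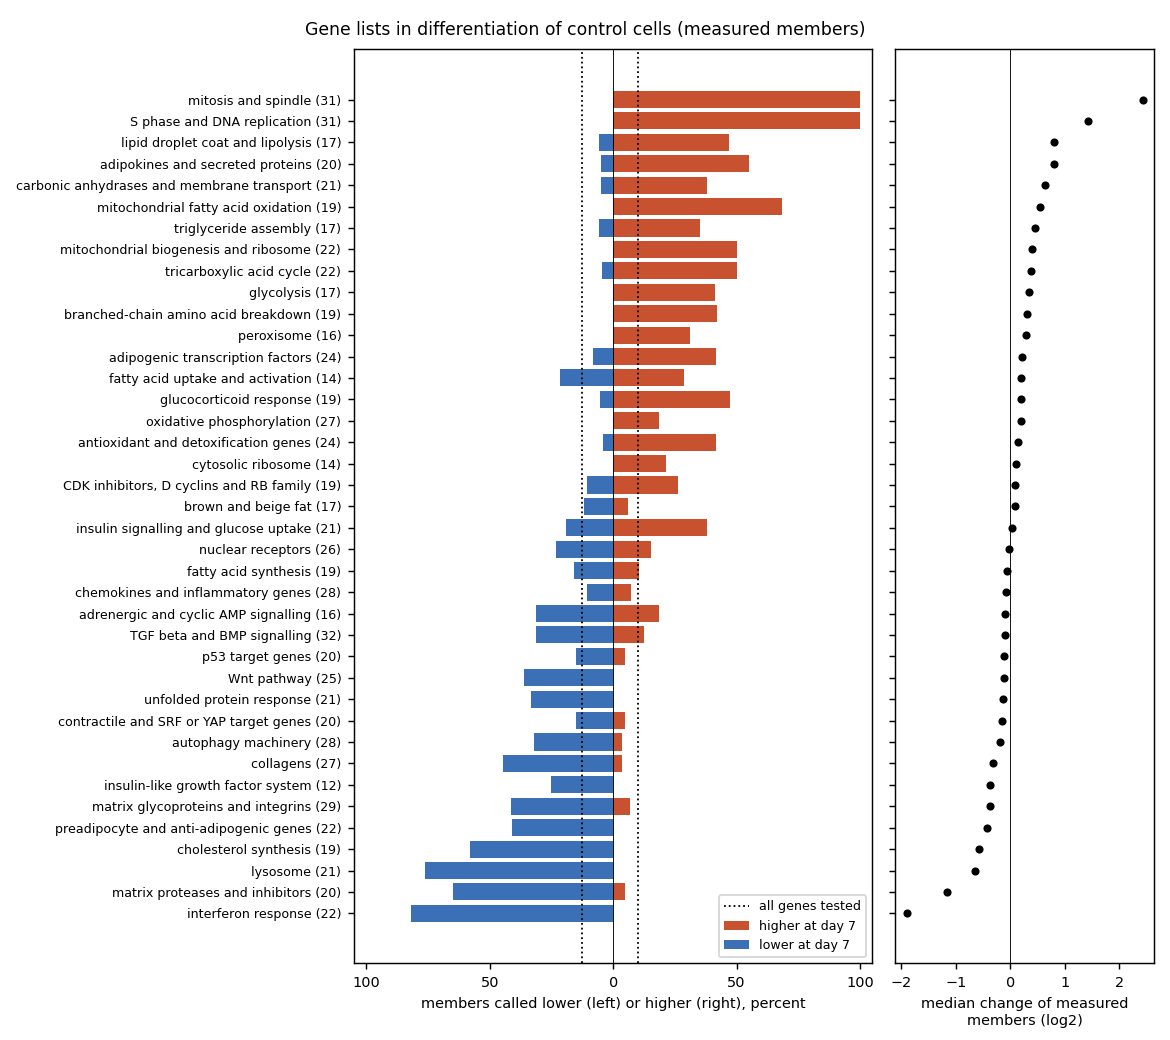
Left, percent of the measured members of each gene list (their number in brackets) that were lower (blue, left) or higher (red, right) at day 7 in control cells, with dotted lines at the share over all genes tested (12.8% lower, 10.1% higher). Right, median change of the measured members (log2), from 2.43 for mitosis to -1.90 for the interferon response.

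Small counts against a list's main direction also rested on single arrays. The 2 adipogenic factors that fell became 1 without day 0 array 1 or day 7 array 1 or 2, and the 2 falls among regulators of cycle entry became 1 without the same arrays and 0 without day 0 array 2. The 1 fall among secreted proteins became 0 without any 1 of the day 0 arrays or day 7 array 3 or 4, that among droplet genes 0 without day 0 array 1 or 2 or day 7 array 1 or 2, and that in the tricarboxylic acid cycle 0 without day 0 array 1 or 2. The 1 fall among antioxidant genes became 5 without day 7 array 3 and 4 with the beta-actin covariate. The 1 fall among glucocorticoid genes became 0 without day 0 array 1 or day 7 array 1 or 2 and 2 without day 7 array 4. The 2 rises among glycoproteins became 1 without any 1 of the day 0 arrays or day 7 array 3, the 1 among proteases 0 without day 0 array 3 and the 1 among collagens 2 without day 7 array 3. The 1 rise among p53 targets became 0 without day 0 array 1 or day 7 array 1 or 2, and the 0 rises in the unfolded protein response became 1 without day 7 array 3 or 4. Averaging of replicates 1 and 2 left 1 adipogenic factor and 1 antioxidant gene that fell, and the other counts of 1 or 2 in these lists, the 1 fall in triglyceride assembly and the 1 rise among contractile genes became 0. With the replicate block 2 antioxidant and 2 glucocorticoid genes fell, 0 droplet genes fell, and 3 collagens, 2 contractile genes, 2 autophagy genes and 1 gene of the unfolded protein response rose. With the beta-actin covariate 1 glycoprotein, 2 proteases, 2 genes of the unfolded protein response, 1 lysosomal gene and 0 p53 targets rose.

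Markers of other cell types were set beside these results. Of 12 macrophage markers 0 were called, and the list's mean level was 4.99 to 5.05 at day 0 and 4.67, 4.71, 5.29 and 4.94 on day 7 arrays 1 to 4, with array 3 the highest. Adgre1, Ptprc and Itgam, defining macrophage and leukocyte genes named after their values were seen, lay between 2.13 and 3.62 on all 7 arrays. Other members stood higher, and 4 of the 12 were left without the dimmest 40% of genes. Of 9 endothelial markers 1 was called, the angiopoietin receptor Tek (-1.58, adjusted p = 0.0154, 0.0692 without day 0 array 3 and 0.0818 with replicates 1 and 2 averaged), with list means of 3.59 to 3.62 at day 0 and 3.37 to 3.51 at day 7. Of 12 skeletal muscle markers 1 was called, the intermediate filament gene Des (0.57, adjusted p = 0.0319), lost with replicates 1 and 2 averaged (0.0725) and without day 0 array 3 or any 1 of the day 7 arrays (0.05 to 0.145). Of 10 bone and cartilage markers Dmp1 fell, of 8 neuronal markers the vesicle fusion gene Snap25 rose by 3.19 ± 0.52 (adjusted p = 0.000842), and of 9 epithelial markers 0 were called. Without day 0 array 2, 1 epithelial marker fell, and without day 7 array 3, 1 muscle marker did. With the beta-actin covariate 1 muscle marker and 2 bone and cartilage markers fell. The part of other cells in the results was not tested.

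**Figure D4:**
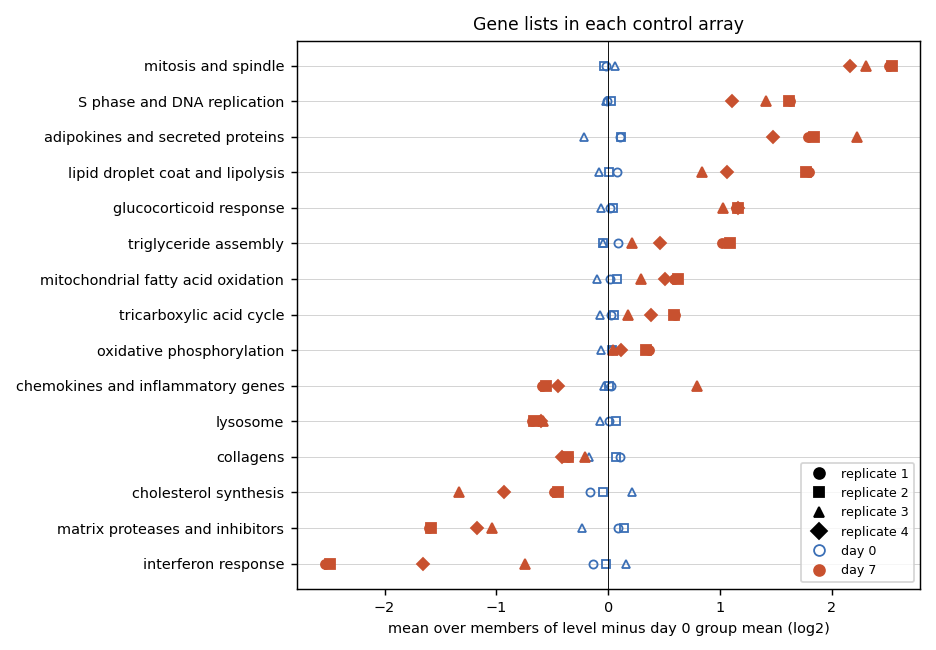
Mean over the members of 15 gene lists on each control array, as level minus the mean of the day 0 arrays (log2), with open blue symbols for day 0 and filled red symbols for day 7. The mitosis list lies between 2.16 and 2.54 on all 4 day 7 arrays, whereas the interferon list runs from -2.53 on array 1 to -0.74 on array 3 and the chemokine list is above 0 on array 3 alone.

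The same change was measured in the cells with the TP53INP2 virus, on 7 other arrays. There Trp53inp2 was lower than in control cells, at 11.28 ± 0.32 (SD, n = 3) at day 0 and 10.18 ± 0.20 (n = 4) at day 7, against 12.45 ± 0.07 and 11.75 ± 0.03. In those cells 6506 genes changed (35.8% of those tested). Of the 4162 genes called in control cells, 3472 were also called there in the same direction (83.4% of the control calls and 53.4% of the knockdown calls) and 6 in the opposite direction, and of the 1249 called with at least a 2-fold change 1117 were (89.4%). The sign was the same in 97.4% of the control calls and in 74.0% of all genes. All 31 mitotic and all 31 S phase genes rose there too, 16 of 22 interferon genes fell and 19 of 21 lysosomal genes fell. Of 27 oxidative phosphorylation genes 20 rose there, against 5 in control cells, but the difference of the changes was called for 0 of the list. Both changes were tested with the same estimate of each gene's spread, so calls in control and knockdown cells were not independent.

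The test of the difference between the changes called 4 genes (0.022% of those tested), and 2403 had an unadjusted p under 0.05. Ehhadh, a bifunctional enzyme of peroxisomal beta-oxidation, was at 2.99 ± 0.31 and 2.93 ± 0.21 in control cells and at 2.87 ± 0.14 and 5.16 ± 0.14 in knockdown cells at day 0 and day 7, a difference of 2.34 ± 0.22 (adjusted p = 0.00168). The immune checkpoint ligand Cd274 fell by 0.69 in control cells and rose by 1.26 in knockdown cells (difference of 1.95 ± 0.27). The fall in control cells was lost with replicates 1 and 2 averaged (adjusted p = 0.151) and without day 0 array 1 or 2 (0.0546 and 0.0673). Edem1, of endoplasmic reticulum quality control, changed by 0.11 and by 0.97 (difference of 0.86 ± 0.12), and the phosphodiesterase Gdpd2 by 0.06 and by -2.93 (difference of -3.00 ± 0.42). The last 3 had an adjusted p of 0.047. When any 1 control array was left out Ehhadh passed in all 7 fits (adjusted p up to 0.00864) and each of the others in 2 of 7. The number of genes that passed was 1 without day 0 array 1, 2 without day 0 array 3, 1 without day 7 array 1 or 2, 17 without day 7 array 3 and 8 without day 7 array 4. With replicates 1 and 2 averaged 0 genes passed, and with the replicate block 26 did. Lcn2, Retnla and Car3 differed by 2.31 ± 0.78, 2.33 ± 0.75 and -1.52 ± 0.80 between the cells, none of which passed.

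**Figure D5:**
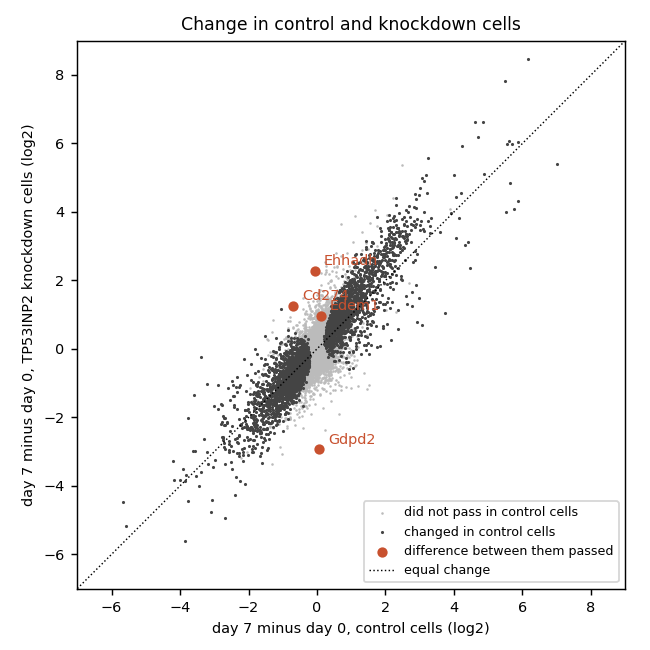
Change of each gene (day 7 minus day 0, log2) in control cells against that in cells with the TP53INP2 virus. Dark points are the 4162 genes called in control cells, light points the rest, the dotted line marks equal change, and the 4 named genes are those whose changes differed.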

How the data were processed

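Total RNA was amplified, labelled with biotin and hybridised to 14 one-colour arrays. The values used are log2 expression per probe set, normalised between arrays by the authors and deposited in that form. The submitters' processing notes name RMA and the affy package, without versions. RMA compresses the changes of dim genes, and precision is limited by how many arrays there are. On the control arrays the medians over genes were 7.07 to 7.22. Of 45101 probe sets, 34945 carried 1 gene symbol in GEO's platform annotation, 932 several, 9160 none and 64 were control probe sets. Each of the 18193 genes was represented by its single-symbol probe set of highest mean over all 14 arrays, and 9010 genes had more than 1. Of the genes, 18031 were found in the RefSeq table by gene ID and 0 symbols were updated.

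Day 7 minus day 0 was fitted with limma 3.58.1 in R 4.3.3 on all 14 arrays, which share 1 estimate of the spread (10 residual degrees of freedom, 12.59 after moderation), with Benjamini-Hochberg adjustment over all genes and a threshold of 0.05. The contrast was also run on simulated data with independent noise on every array. That noise does not copy the likeness of day 7 arrays 1 and 2. Samples were grouped by labelled genotype and day. The labels do not say what a replicate number shares, so the reported fit leaves pairing out. Same-numbered day 0 and day 7 arrays did deviate together over genes (r = 0.21, 0.14 and 0.19). Since day 7 arrays 1 and 2 were nearly alike, the values for numbers 1 and 2 cannot show pairing by number. With the replicate number as a block 4584 genes changed, against 4162 in the reported fit. The fit without the block is reported, and the block and the other alternatives are in the closing section. These were control arrays alone, replicates 1 and 2 averaged, arrays left out, probe set choice, dim genes, scaling, moderation and a beta-actin covariate. Promoters were matched by symbol to a RefSeq table of build GRCm38.p6.

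Genes were named from those that a rule picked, and not every gene so picked is named. The rule took the 15 largest called changes in each direction without overlap, and the markers. Of each list it took up to 8 called members, 4 against the majority and 3 that did not pass. Stat5a, Cebpb, Plin2, Pck1, Lpl, Scd1, Fasn, Acly, Apln, Lep, Prim1, Cdkn1a, Stat2, Irf9, Ucp1, Gpnmb, Mitf, Adgre1, Ptprc and Itgam were named after their values were seen. The members and lists were chosen with earlier results of these data known.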

Additional observations from a re-analysis of the deposited data

Results flagged for a closer look

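In 17 of the 182 named genes 1 of the 4 day 7 control arrays lay far from the other three, by the ratio of its gap to the whole range (Dixon's criterion). Chance does this in about 1 of 20 groups of independent values, and arrays 1 and 2 were nearly alike. Array 3 was the high one for Lcn2 (13.64), Saa3 (13.73), Hp (12.54), Cxcl1 (12.12), Nfkbia (12.82), Aqp1 (11.16), Ccl8 (10.55), Mmp13 (8.05) and Cemip (4.95), and the low one for Mki67 (10.74), Plin4 (9.68) and Fbln7 (3.04). Array 4 was the high one for Mmp14 (9.60) and the low one for Dgat2 (7.86), Agpat5 (10.09) and Uhrf1 (11.64). Array 2 was the low one for Rab27a (4.32).

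The change from day 0 to day 7 differed between knockdown and control cells by limma's test of the difference in 4 genes: Ehhadh (2.34, adjusted p = 0.00168), Cd274 (1.95), Edem1 (0.86) and Gdpd2 (-3.00), the last 3 at an adjusted p of 0.047. Over the alternatives their adjusted p ranged from 0.00117 to 0.218 for Ehhadh, 0.0122 to 0.673 for Cd274, 0.0295 to 0.687 for Edem1 and 0.0205 to 0.673 for Gdpd2.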

How the results depend on the processing

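The number of changed genes (4162) became 1584 with replicates 1 and 2 averaged, 2196 without day 7 replicates 1 and 2, and 7076 when each of 34945 probe sets was tested, and lay between 3009 and 4280 when 1 control array was left out. Under the other alternatives it stayed within 1.5 times. With the control arrays alone 3752 genes changed, and some list counts shrank. For example, 7 tricarboxylic acid cycle genes and 2 nuclear receptors then rose, and 3 nuclear receptors and 4 genes of the unfolded protein response fell. Changes of at least 2-fold (1249) became 2197 over all probe sets and 1080 to 1413 without 1 array. The 3472 calls shared with knockdown cells became 1386 with the averaging, 1796 without day 7 replicates 1 and 2, 5762 over all probe sets and 2642 to 3640 without 1 array. The 4 genes whose change differed between the cells became 26 with the replicate block, 0 with the averaging, 1 to 17 without 1 array, 74 without day 7 replicates 1 and 2, 14 without 3 and 4, 12 with each gene's most variable probe set by interquartile range, 75 over all probe sets, 57 without the dimmest 40% of genes, 13 with arrays shifted to 1 median, 1 after quantile normalization and 8 with trend and robust moderation. None of the 182 named genes reversed under these alternatives, leaving out the test over all probe sets, where named genes were not compared, and counting 169 of them without the dimmest genes. With the averaging 40 lost their call, as did 28 without day 7 replicates 1 and 2. With only day 7 array 1 or only day 7 array 2 left out, 9 lost it. The replicate block changed the call of Plin2, Uqcrfs1, Igf1r, Plin4 and Igf2 and of no other named gene. With the most variable probe set 136 of the called genes had the opposite sign, and with the mean over probe sets 58. Among named genes not covered above, other probe sets of Tbc1d4 (0.55), Aqp7 (0.75), Dgat1 (0.78), Dio2 (-0.24 to -0.14), Dvl2 (-0.14) and Igf1r (-0.29 to 0.17) did not pass, for example. The causes were not tested. Shifting arrays to 1 median moved the median of all genes from -0.01 to 0.04. Endothelial markers had no member left without the dimmest 40% of genes. Signal over background is not recorded in the values used here, so a dim gene's level is only a position near the bottom of the scale.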

Other observations

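Genes that share a symbol root were counted where at least 10 were measured. The roots were not chosen as lists, though some members, such as Mcm5 and Mrpl12, are also in the lists above. Of the genes with the root Mcm 8 of 10 rose (median 1.37) and of the Exosc genes of the RNA exosome 5 of 10 (0.62). Among the Lsm genes of RNA splicing and decay 6 of 12 rose (0.40). Among the Snhg small nucleolar RNA host genes 7 of 14 rose (0.52) and among the Mrpl mitochondrial ribosomal proteins 22 of 47 (0.39). Of the Parp genes 7 of 11 fell (median -0.53), of the Chd chromatin remodellers 6 of 10 (-0.39), of the Pcdhb protocadherins 10 of 22 (-0.64) and of the Vps genes of vesicle sorting 13 of 35 (-0.17). Over all genes 10.1% rose and 12.8% fell. These roots were picked for their counts after all were seen, so the counts are descriptions.

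Beside Mlana, Gpnmb and Mitf were picked after its fall and their own values were seen. Genes of pigment cells were not counted as a list, so these genes do not describe them as a set. Gpnmb, a melanosome and lysosome glycoprotein, stood at 7.28, 7.15 and 7.88 at day 0 and at 5.53, 5.36, 7.02 and 4.92 at day 7 (-1.73, adjusted p = 0.0145; limma). Mitf, the transcription factor of pigment cells, stood at 12.09, 12.09 and 12.26 and then at 11.24, 11.23, 11.83 and 11.40 (-0.72, adjusted p = 0.00804). Both calls were lost with replicates 1 and 2 averaged (adjusted p = 0.122 and 0.108) and with the mean over probe sets (0.167 and 0.364), and Gpnmb also without day 0 array 3 (0.0644). Array 3 was the day 7 array nearest to day 0 in both.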
